A study of Mus musculus with 2 samples.

Results

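miR-221 and miR-222 are paralogous microRNAs (miRNAs) encoded side by side on the mouse X chromosome. Every mature arm of either hairpin was taken, by name, from the deposited list, which gave 4 members among 628 listed miRNAs: mmu-miR-221-5p and mmu-miR-221-3p from one hairpin, mmu-miR-222-5p and mmu-miR-222-3p from the other (the species prefix is left off below). They were measured by small RNA sequencing in fibro-adipogenic progenitors (FAPs), resident mesenchymal cells of skeletal muscle that are able to become adipocytes. The cells were Sca1+ FAPs sorted from muscle of wild-type C57Bl/6 mice. They were grown in 20% FBS, 10% HS and 5 ng/ml FGF, with a stated confluence of 80%. One group was then held for 24 h in basal medium (BM, with 10% HS) and the other for 24 h in adipogenic differentiation medium (ADM), for which the sources used here name no components. Each medium is represented by 1 library, so all differences below are between these libraries and come with no p-value. Their intervals cover counting error only. Variation between animals, cultures or library preparations could not be estimated.

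A miRNA hairpin is cut into a duplex of a 5p and a 3p arm, of which usually one is loaded into Argonaute as the guide. The guide finds mRNAs mainly through its seed, bases 2 to 8, so miRNAs with the same seed are predicted to share targets. miR-221 and miR-222 are thought to be processed from a common primary transcript. Their best known target is Cdkn1b, the cyclin-dependent kinase inhibitor p27, and they also repress Kit, the stem cell factor receptor. Both have been reported to decline when cultured preadipocytes form adipocytes and when myoblasts differentiate.

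The sequences below show what the paralogs share and where they part. The mature sequences are from RefSeq (GRCm38.p6, minus strand of chromosome X), written 5′ to 3′ with the seed in capitals. miR-222-5p is named only.
miR-221-3p: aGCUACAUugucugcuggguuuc
miR-222-3p: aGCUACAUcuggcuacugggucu
miR-221-5p: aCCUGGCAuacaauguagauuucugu

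The 3p arms are identical over their first 8 bases, which include the whole seed GCUACAU, and differ at the next base. Over 23 ungapped positions 11 were identical and 12 differed, starting with U9C, G10U and U11G. These give the base of miR-221-3p, the position counted from the 5′ end, then the base of miR-222-3p. Both arms also hold the stretch CUGGGU, which lies a single base further along in miR-222-3p. The ungapped count therefore scores that stretch partly as substitutions and understates the likeness of the arms. Among 1679 mature miRNAs of the RefSeq table only miR-1928 had the same seed besides these, and it is not on the deposited list. The seed of miR-221-5p, CCUGGCA, was found in no other mature miRNA of that table. Of the 514 listed miRNAs matched to that table, miR-221-3p and miR-222-3p were thus the only carriers of the seed GCUACAU.

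The hairpins, also from RefSeq, show how the arms lie in their precursors, with the annotated mature arms in capitals.
Mir222: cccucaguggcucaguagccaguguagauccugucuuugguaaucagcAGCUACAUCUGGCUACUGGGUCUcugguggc
Mir221: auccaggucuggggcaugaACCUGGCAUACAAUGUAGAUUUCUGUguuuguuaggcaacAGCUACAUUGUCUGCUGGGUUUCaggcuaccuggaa

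Mir222 lies at chrX:19146893-19146971 and Mir221 at chrX:19146294-19146388 (GRCm38, the assembly that mm10 names), both on the minus strand, so Mir222 is the upstream hairpin. They are 504 bases apart. No other annotated gene of GENCODE M21 overlaps them, and the next gene upstream on their strand, the noncoding Gm14636, ends 10009 bases away in that annotation.

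**Figure D1:**
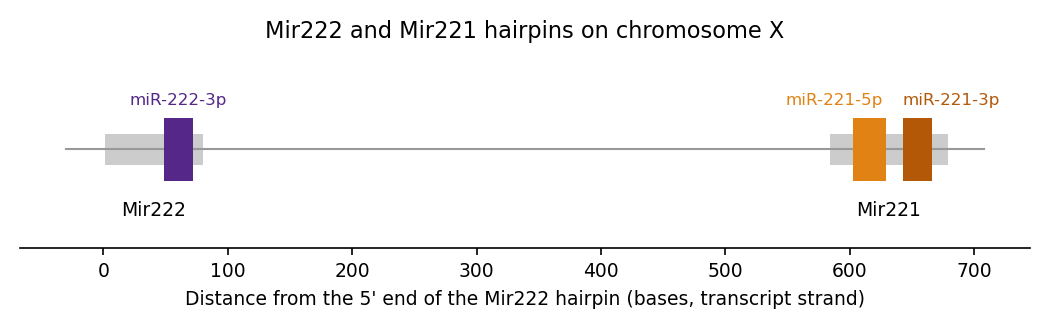
Map of the Mir222 and Mir221 hairpins (grey) along the transcript strand, with distance from the 5′ end of Mir222 in bases; coloured boxes are the mature arms that RefSeq annotates. The hairpins are separated by 504 bases, and both 3p arms lie on the downstream side of their hairpin.

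Seed matches in known targets illustrate the shared target site. In 3′ UTRs of GENCODE M21 transcripts (the longest per gene), the complement of the seed is ATGTAGC, searched on the transcript strand. It is shown in capitals, with an A that faces base 1 of the miRNA where there is one, preceded by 15 bases.
Cdkn1b: ctctaaaagcattggATGTAGCA
Kit: aatgatgggagatatATGTAGCA

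Cdkn1b had 1 such match and Kit had 2, of which the first is printed. Cdkn1c, which encodes the related inhibitor p57, had 1. Of 20981 genes with a 3′ UTR, 1977 (9.42%) held the match, so a match alone is a description of the letters in that window. mRNA levels of these genes were not measured here.

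The libraries had 755193 reads (BM) and 790617 reads (ADM) as denominators, recovered from the percent values, and levels are given in RPM, 10000 times the percent. The mesenchymal miRNAs fixed as markers (miR-199a-5p, the joint entry of miR-199a-3p with miR-199b-3p, miR-214-3p, miR-143-3p and miR-145a-5p) were all present and summed to 7.28% of BM and 8.46% of ADM reads. They did not move together: miR-143-3p (log2 ratio 0.90) and miR-145a-5p (0.69) were above 0, while miR-199a-5p (-0.95), the joint miR-199a-3p entry (-0.44) and miR-214-3p (-0.29) were below 0. Without miR-143-3p the remaining 4 summed to 4.41% of BM and 3.11% of ADM reads. Endothelial miR-126, of interest because miR-221 and miR-222 are abundant in endothelial cells, summed over both arms to 88 reads (BM) and 203 (ADM), with miR-126-5p at 61 and 168 and miR-126-3p at 27 and 35. Of the 5 haematopoietic names, miR-150-5p had 1 and 3 reads, miR-451a 0 and 1, and the others were not listed. Of the epithelial names, miR-203-3p had 17 and 15 reads, miR-141-3p 2 and 0, and miR-200b-3p 0 and 1. The 4 skeletal muscle miRNAs summed to 2303 reads in BM and 242 in ADM, nearly all of them miR-133a-3p (2266 and 231), while miR-133b-3p had 25 and 8, miR-206-3p 8 and 1 and miR-1a-3p 4 and 2. The muscle miRNAs were thus lower in the same library as most arms of the cluster, and the endothelial ones higher; their part in the values below was not tested. Fewer cells of a type and less miRNA per cell cannot be told apart in such data.

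The miR-221 and miR-222 cluster was less abundant in the ADM library, and its composition differed. All 4 arms together took 0.761% of BM reads (95% exact Clopper-Pearson interval 0.742 to 0.781%) and 0.443% of ADM reads (0.429 to 0.458%). The summed level was 1.72-fold lower in ADM (exact conditional counting interval 1.65 to 1.79). miR-222-3p accounted for 81.7% of that difference in RPM, miR-221-5p for 11.2%, miR-221-3p for 6.54% and miR-222-5p for 0.598%. In RPM, where abundant arms weigh most, the difference was thus mostly one of a single arm. By ratio, 3 of the 4 arms were at least 2-fold lower in ADM, and miR-221-3p was the exception.

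miR-222-3p, the main product of the upstream hairpin, was read 3130 times in BM (4145 RPM) and 1222 times in ADM (1546 RPM). It stood at rank 36 of the BM list and at rank 60 of the ADM list. Its percent value was 2.68-fold lower in ADM (2.51 to 2.87), and its log2((ADM + 1)/(BM + 1)) in RPM, called the log2 ratio below, was -1.42. In BM it was the most abundant arm of the cluster.

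miR-221-3p, the main product of the downstream hairpin, gave 2185 BM reads (2893 RPM) and 2123 ADM reads (2685 RPM). Its rank hardly moved, from 43 to 44. The log2 ratio was -0.11, and the ADM level was 0.928 of the BM level (0.874 to 0.986). The counting interval excluded a ratio of 1 narrowly, and whether it did so depended on the scaling. With the median of ratios as scaling the ratio was 0.970 (0.914 to 1.03), an interval that contains 1. With the trimmed mean of M values it was 0.864 (0.814 to 0.918), an interval that does not. The size was far below the 2-fold rule used for calls. In ADM this was the most abundant arm of the cluster.

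miR-221-5p, the opposite arm of the same hairpin, gave 412 BM reads (546 RPM) and 150 ADM reads (189.7 RPM). It was 2.88-fold lower in ADM (2.38 to 3.49; log2 ratio -1.52), the lowest log2 ratio of the cluster. Its rank went from 96 to 143. Within a single hairpin, then, one arm was lower by more than 2-fold while the other was nearly level.

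miR-222-5p, the minor arm of the upstream hairpin, gave 22 BM reads (29.1 RPM) and 8 ADM reads (10.1 RPM). Its ratio was similar in size to that of the opposite arm, 2.88-fold lower in ADM, but the counting interval was wide (1.23 to 7.48). The log2 ratio was -1.44. With a pseudocount of 10 RPM it was -0.96, which is under the 2-fold rule, so this call rests on the pseudocount.

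**Figure D2:**
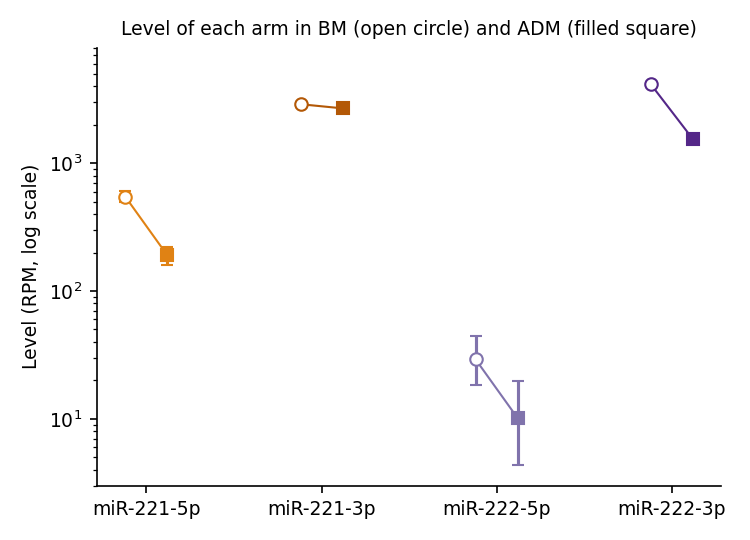
Level of each arm in RPM (log scale) in the BM library (open circles) and the ADM library (filled squares), with 95% exact Clopper-Pearson counting intervals and 1 library per medium. miR-221-3p is nearly level at 2893 and 2685 RPM, while the other arms are lower in ADM, miR-222-3p from 4145 to 1546 RPM.

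Set against all miRNAs, 3 of the 4 arms were at least 2-fold lower in ADM and 0 were higher. Among the 337 listed miRNAs with a mean of at least 10 RPM, 69 (20.5%) were at least 2-fold lower and 36 (10.7%) at least 2-fold higher, so 105 (31.2%) passed the rule in either direction. The 4 arms are not independent, since they come from neighbouring hairpins. Their median log2 ratio was -1.43, beside -0.02 for all 337. Counted from the lowest of the 337 log2 ratios, miR-221-5p had rank 38, miR-222-5p rank 44, miR-222-3p rank 46 and miR-221-3p rank 156. The first 3 ranks lie within the lower tail and the last near the middle. In the authors' deposited table the ADM/BM ratios were 0.348 for miR-221-5p, 0.928 for miR-221-3p, 0.347 for miR-222-5p and 0.373 for miR-222-3p.

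**Figure D3:**
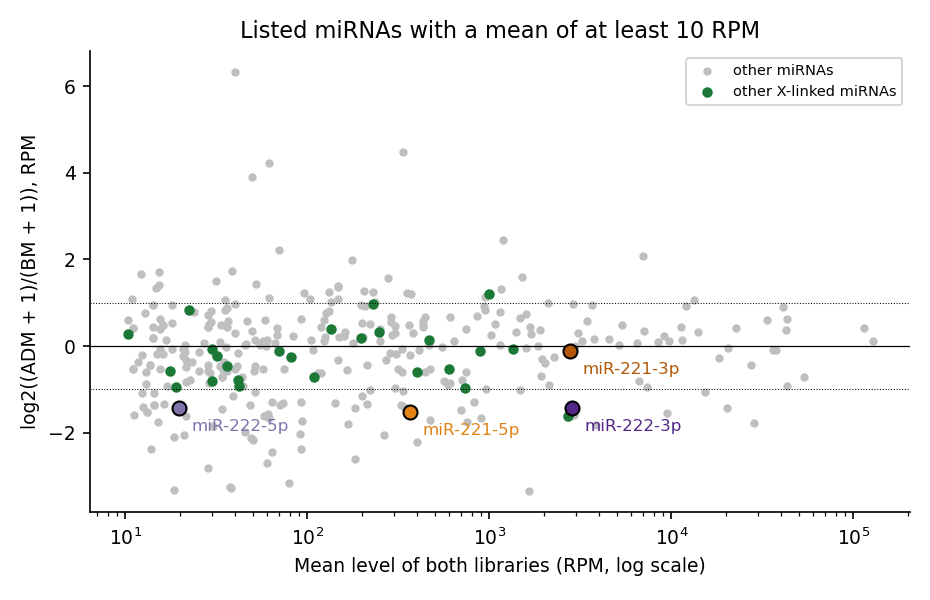
Log2((ADM + 1)/(BM + 1)) in RPM against mean level in RPM (log scale) for the 337 miRNAs with a mean of at least 10 RPM; dotted lines mark 2-fold, and green points are the other X-linked miRNAs. both 5p arms and miR-222-3p lie below the lower dotted line at levels that differ widely, and miR-221-3p lies near 0.

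The order of the paralogs was opposite in the libraries. miR-222-3p outnumbered miR-221-3p 1.43-fold in BM (1.36 to 1.51), while in ADM it had 0.576 of the reads of miR-221-3p (0.536 to 0.618). As a share of the reads of miR-221-3p and miR-222-3p together, miR-222-3p made up 58.9% in BM (57.6 to 60.2%) and 36.5% in ADM (34.9 to 38.2%). The log2 ratios of these arms differed by -1.31 (miR-222-3p minus miR-221-3p; counting interval -1.45 to -1.19). Such a ratio of 2 miRNAs within a library does not depend on how libraries are scaled.

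Summed, the 3p arms with the seed GCUACAU differed less than miR-222-3p alone. miR-221-3p and miR-222-3p together gave 5315 BM reads (0.704% of the denominator) and 3345 ADM reads (0.423%), which is 1.66-fold lower (1.59 to 1.74). This is under the 2-fold rule that miR-222-3p alone passed.

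Arm use differed for miR-221. The 5p arm made up 15.9% of the miR-221 reads in BM (14.5 to 17.3%) and 6.60% in ADM (5.61 to 7.70%). The arm difference, the 5p log2 ratio less the 3p log2 ratio, was -1.41 (counting interval -1.71 to -1.13). For miR-222 the 5p arm held 0.698% of the hairpin's reads in BM (0.438 to 1.05%) and 0.650% in ADM (0.281 to 1.28%). The arm difference of miR-222 was -0.02, or 0.46 with a pseudocount of 10 RPM, and the counting interval of the ratio without a pseudocount ran from -1.48 to 1.12. Neither a difference as large as that of miR-221 nor its absence could be detected with 8 reads of the 5p arm in ADM.

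Comparing all 6 pairs of arms places miR-221-3p apart from the rest. The counting interval of the difference in log2 ratio excluded 0 for 3 pairs, each of which includes miR-221-3p, and contained 0 for the 3 pairs without it. miR-221-5p and miR-222-3p, from different hairpins, differed by -0.10 (-0.40 to 0.19), so a gap of more than 0.40 on the log2 scale lies outside that interval. miR-221-5p against miR-222-5p gave 0.00 (-1.26 to 1.41), an interval too wide to separate like from unlike. With intervals widened for 6 pairs, miR-221-3p against miR-222-5p no longer excluded 0 (-0.17 to 3.30), while miR-221-3p against miR-221-5p and against miR-222-3p did. By hairpin, the summed arms of miR-222 were 2.68-fold lower in ADM (2.51 to 2.87) and those of miR-221 1.20-fold lower (1.13 to 1.27).

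Among 89 hairpins with both arms at a mean of at least 10 RPM, the counting interval of the arm difference excluded 0 in 26. The median absolute arm difference was 0.49 on the log2 scale. miR-221 had the 7th largest size and the 2nd lowest signed value. The lowest belonged to miR-337 (-2.56), with 7 BM and 13 ADM reads of its 3p arm, and the highest to miR-376b (1.87), with 21 and 12 reads of its 5p arm. A 5p arm lower relative to the 3p arm by at least 1 was found in 3 hairpins, and a 5p arm higher by at least 1 in 11. In a subset chosen after the values were seen, the 8 hairpins with at least 500 reads of each arm over both libraries, miR-221 had the largest arm difference. The other 7 lay between -0.52 (miR-872) and 0.72 (miR-423).

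Most miRNAs with the same seed lay closer together than miR-221-3p and miR-222-3p. Of 106 pairs that share bases 2 to 8, both with a mean of at least 10 RPM, 18 differed by at least 1 in log2 ratio, and the median absolute difference was 0.38. miR-222-3p and miR-221-3p had rank 10 by size. The most positive difference was that of miR-708-5p against miR-28a-5p (4.43), where miR-708-5p gave 4 BM reads against 74 ADM reads, and the most negative that of miR-92b-3p against miR-25-3p (-3.19). Among the 46 pairs with both members at 1000 RPM or more, a level chosen after the values were seen, the miR-222-3p pair was the only one that differed by at least 1. The next was let-7i-5p against let-7g-5p (-0.99). Many pairs share a member, so they are not independent.

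Neighbouring hairpins were compared in the same way, each by the most abundant arm listed under its own name. Arms shared by several hairpins were left out, so some hairpins stand by a minor arm, such as let-7f-2-3p (16 and 11 reads). Among 267 pairs of arms from hairpins on the same strand with at most 10 kb between them, 119 differed by at least 1. Over all 267 the median absolute difference was 0.90, and the miR-221-3p and miR-222-3p pair had rank 83. Chromosome 12, with the Dlk1-Dio3 cluster, holds 225 of these pairs and 108 of the 119. Outside it, a split made after the values were seen, 11 of 42 pairs differed by at least 1, the median was 0.60 and the miR-221-3p and miR-222-3p pair had rank 4. The pair of let-7f-2-3p and miR-98-5p (1.77) ranked above it. Among the 7 of all 267 pairs with both arms at 1000 RPM or more, the miR-221-3p and miR-222-3p pair had the largest difference. The next was let-7e-5p and miR-125a-5p (1.18). That level was also chosen after the values were seen.

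**Figure D4:**
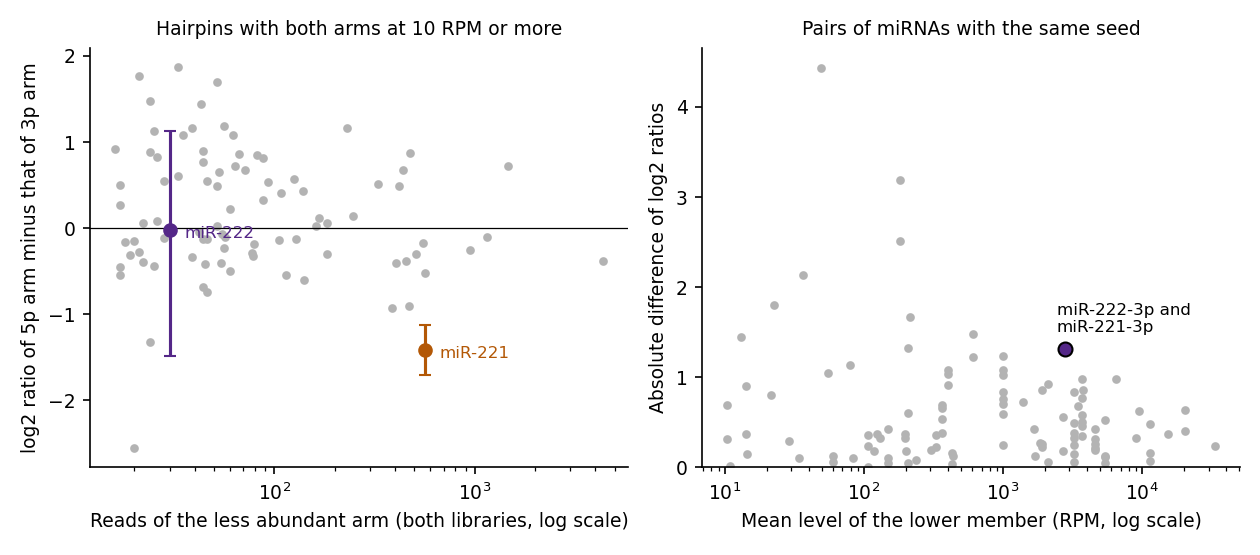
Left, arm difference (5p log2 ratio less 3p log2 ratio) for 89 hairpins against reads of the less abundant arm (log scale), with 95% counting intervals for miR-221 and miR-222. Right, absolute difference of log2 ratios for 106 same-seed pairs against the mean level of the lower member (RPM, log scale); the miR-222-3p and miR-221-3p pair lies above the other pairs of 1000 RPM or more.

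The miRNAs nearest to each arm in level and ratio were sought by distance in log2(RPM + 1) over the 2 libraries. miR-222-3p lay closest to miR-411-5p (distance 0.12), miR-351-5p (0.22) and miR-434-3p (0.26), of which miR-411 and miR-434 belong to the imprinted Dlk1-Dio3 cluster and miR-351 is X-linked. For miR-351-5p 3092 BM reads stood against 1050 ADM reads. miR-221-3p lay closest to miR-151-5p (0.07), miR-196a-5p (0.15) and let-7e-5p (0.34). miR-151-5p had 2158 and 2224 reads. miR-221-5p lay closest to miR-674-3p (0.15), miR-128-3p (0.21) and miR-199b-5p (0.34), and miR-222-5p to miR-133b-3p (0.18), miR-195a-3p (0.33) and miR-672-5p (0.36). The distance includes the level, which sets the arms apart from each other. A profile of 2 libraries is a weak measure of likeness.

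Most other miRNAs of the X chromosome were less than 2-fold apart. Of 55 other listed arms with all their annotated hairpins on X, 25 had a mean of at least 10 RPM. miR-98-5p, a let-7 relative, was 2.29-fold higher in ADM (log2 ratio 1.20), miR-351-5p was lower (-1.62), and the other 23 were less than 2-fold apart, where 10.7% of all 337 were higher and 20.5% lower. With the trimmed mean of M values as scaling, 4 arms were lower, and with the median of ratios, 2 were higher. The median of the 25 was -0.24, beside -0.02 for all 337, and 17 of the 25 were below 0, beside 173 of the 337 (51.3%). miR-532-5p, after miR-351-5p the most abundant of them by the mean of both libraries, had 1036 and 1039 reads (-0.06).

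Other miRNAs reported to target Cdkn1b were examined by the same rule. The list held all arms of miR-24, miR-148a, miR-148b, miR-152, miR-181a, miR-181b, miR-196a and miR-196b, of which 14 had a mean of at least 10 RPM. At least 2-fold higher and lower arms numbered 0 each, where 10.7% and 20.5% of all 337 passed. With 14 arms, many from the same families, these counts are small, and nothing particular to the list is read from them. The median log2 ratio was 0.20, beside -0.02 for all 337. The most abundant, miR-148a-3p, made up 3.40% of BM reads and 5.27% of ADM reads (log2 ratio 0.63). miR-181a-5p had a log2 ratio of 0.15 and miR-196a-5p one of 0.01. At the top of the list was miR-24-3p (log2 ratio 0.74), with 900 and 1570 reads, and at its foot miR-152-3p (-0.85), with 589 and 342 reads.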

How the data were processed

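Small RNA of 1 BM and 1 ADM library was prepared with an Illumina TruSeq kit and a gel band of 147 bp, per the labels' protocols. The authors deposited miRanalyzer output as the percent of reads per mature miRNA, per the file headers. Its version, filters and handling of reads with several matches are not given in the sources, so reads that fit 2 miRNAs could be split or counted in either. The submitters' processing notes name mm10. A second deposited table holds the authors' ratio of ADM to BM and a log2 column of it.

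The smallest value above 0 of each column was taken as 1 read, and 100% of values came out as whole reads within 0.001 (1.32 RPM in BM, 1.26 RPM in ADM). Intervals are 95% and exact (scipy 1.17.1), from recovered reads; without molecular identifiers, reads are not separate molecules, and intervals cover counting error only. Calls need a mean of at least 10 RPM and a 2-fold difference with a pseudocount of 1 RPM. Simulated counts with counting error only were used to test the ratio of a single miRNA, its interval, the 2-fold call and the trimmed mean of M values. Arm differences, pairs, neighbours and seed matches were not tested in that way. Hairpins were matched by name for 597 of 628 rows in GENCODE M21, and mature sequences for 514 in RefSeq, including 3 of the 4 members. Alternatives were pseudocounts of 10 and 0.1 RPM, the trimmed mean of M values, the median of ratios, no minimum or one of 100 RPM, and thresholds of 1.5-fold and 3-fold.

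Beside the 4 arms, named miRNAs are the 3 nearest to each arm, same-seed miRNAs and cell type markers. Also named are the 3 most abundant and both extremes of each list, and the extremes of pairs and arm differences. miR-872, miR-423, let-7i-5p, let-7g-5p, let-7f-2-3p and miR-125a-5p were chosen after their values were seen. The members and lists were chosen with earlier results of these data known.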

Additional observations from a re-analysis of the deposited data

How the results depend on the processing

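No paired analysis was possible because each medium has 1 library. With the trimmed mean of M values, which shifts the median log2 ratio of all miRNAs by -0.10, miR-221-3p had -0.21, miR-222-3p -1.53 and the summed share of the arms an ADM/BM ratio of 0.542; with the median of ratios that ratio was 0.608 and miR-221-3p had -0.04. Of the 4 arms 0 passed a 3-fold threshold. Over all miRNAs the higher and lower calls numbered 131 and 158 with no minimum level, 21 and 29 at 100 RPM or more, 75 and 104 at 1.5-fold and 12 and 35 at 3-fold, by construction. Of the X-linked list, 4 were lower under the former scaling and 2 higher under the latter; without a minimum 12 were higher and 14 lower. Of the Cdkn1b list 2 were then higher and 2 lower. The ranks of the same-seed pair and of the miR-221 arm difference were 1 in the deeper subsets, against 10 and 7, and that of the neighbouring pair was 4 outside chromosome 12, against 83; these subsets were chosen after the data were seen. The other 65 of 87 alternatives stayed within a factor of 1.5 for counts or the counting interval for values, a wide limit for miR-222-5p, whose depth of 22 and 8 reads limits its ratio.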
